A study of Mus musculus with 4 samples.

Results

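The genes described here encode the motors that walk along microtubules: kinesins, kinesin light chains, cytoplasmic dynein and its cofactor dynactin. They were chosen by symbol, as every Kif, Kifc, Klc, Dync, Dynl and Dctn gene, which gave 70 of the 78334 identifiers in the counts table. These were 43 kinesins, 4 kinesin light chains, 17 dynein genes and 6 dynactin genes, of which 40 had enough counts to be tested. Dynlt1-ps1 and Kifc5c-ps are annotated as pseudogenes.

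The cells were sorted as retinal ganglion cells, the output neurons of the eye, 2 weeks after a crush of the optic nerve, and their messenger RNA was counted. The treated group had an adeno-associated virus of serotype 2 carrying an anti-miR132-3p shRNA, a hairpin against the microRNA miR-132-3p, and the control group had the same kind of virus with a scramble shRNA. Both viruses also expressed mCherry. Count columns named only for mCherry were taken as scramble because the others name miR132, and every direction rests on this. All mice were WT, of both sexes and 8 to 12 weeks old, and were injected in the eye at 8 weeks, 2 weeks before the crush. Retinas were pooled, 10 per condition, and cells were taken by Thy1 panning and then by sorting of mCherry, about 5000 per library. About 40% of ganglion cells carried a virus. No label gives the promoter of the hairpins or says whether both libraries of 1 condition had the same animals as their source.

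Totals per library were 1731199 and 1732416 counts in the anti-miR132-3p group and 1845090 and 1846637 counts in the scramble group. Libraries of the same group were as alike as repeated sampling of 1 pool would make them. Chi-square divided by its degrees of freedom was 0.998 within the anti-miR132-3p pair (p = 0.568) and 1.01 within the scramble pair (p = 0.175), whereas pairs taken across groups gave 4.41 to 4.45. Levels and folds were therefore taken from each pair summed as 1 sample, and none of the differences has a replicate check. The fit behind the calls and adjusted p-values kept the 2 libraries of a group apart, with 2 residual degrees of freedom, so its spread is that between such libraries. The intervals are exact 95% Clopper-Pearson intervals and cover counting error only, and a p-value sets the reads of the libraries against each other and not the conditions. Levels are in CPM, counts scaled to a common library size, and a level per kilobase divides the CPM by exonic length. Levels of different genes are compared per kilobase. Shares of reads within a family are not scaled for length, and they serve to compare the groups rather than the genes.

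All 11 ganglion cell markers looked at had counts, and their sum was 1804 CPM with the anti-miR132-3p shRNA and 1748 CPM with the scramble shRNA. Nefl led the sum, and by the edgeR test described below 2 of the 11 were called higher and 2 lower. Of 7 amacrine markers looked at, 4 had counts, and their sum was 2331 CPM with anti-miR132-3p and 2155 CPM with scramble. Pax6 led this sum, Gad1, Slc32a1 and Tfap2b were at 0, and 3 of the 7 were called higher and 0 lower. The 6 Müller glia markers were at 159 CPM with anti-miR132-3p and 120 CPM with scramble. The 6 rod markers were at 14.8 CPM with anti-miR132-3p and 78.1 CPM with scramble, with Gnat1 among those at 0. Of these 6, 3 were called lower and 0 higher. The 8 microglia markers summed to 64 counts with anti-miR132-3p and 5 with scramble, and the 8 interferon response genes to 289.5 CPM with anti-miR132-3p and 44.9 CPM with scramble. The part of these other cells and of the interferon genes in the motor values was not tested, and in bulk RNA fewer cells of a type and less RNA per cell cannot be told apart.

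Kinesins mostly carry cargo towards the growing ends of microtubules, which in an axon point away from the cell body, and cytoplasmic dynein carries cargo back. Kinesin-1 is built of heavy chains, the motors, and light chains that bind cargo. Dynein-1 is built round a heavy chain with intermediate, light intermediate and light chains, and needs dynactin to move far. In ganglion cells these motors move mitochondria, vesicles and injury signals along the length of the optic nerve.

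The hairpin targets a microRNA, so the sites that this microRNA could pair with in motor transcripts are shown. The seed, bases 2 to 8 of the microRNA, is in capitals for miR-132-3p and for miR-212-3p, the neighbour that shares it. In the insert of the hairpin, which is the exact reverse complement of miR-132-3p, the capitals mark GACTGTTA, the match of the seed followed by A. The microRNAs are RefSeq sequences (GRCm38.p6), and the insert is as the study's design text gives it.
mmu-miR-132-3p: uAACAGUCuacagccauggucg
mmu-miR-212-3p: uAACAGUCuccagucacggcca
anti-miR132-3p insert: cgaccatggctgtaGACTGTTA

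The longest annotated 3′ UTR of each gene was searched, on the sense strand, for GACTGTT, which includes the 8-base form GACTGTTA. Of 39 tested motor genes with such a UTR, 6 held a match, 15.4%, beside 14.2% of 10391 tested genes. The matches follow in capitals with 11 bases on each side, from GENCODE M21 transcripts on GRCm38, an older build than that of the counts.
Kif5a, first match: ccgtgatgttgGACTGTTtgatgtctcct
Kif5a, second match: actactcaaggGACTGTTtccctttctgg
Kif1b, first match: ggtcactgtccGACTGTTgtctccgtagc
Kif1b, second match: ggcagaaatcaGACTGTTcttatctaaaa
Kif21a: acacattggtaGACTGTTAtcatttgtggt
Dync1li2: taaactgaagaGACTGTTgtcttgatgag
Dynll2: ggcgttgctggGACTGTTgcactggggcc
Kif26b: gccatcggcttGACTGTTttagaagtcag

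These windows all lie in 3′ UTRs. Those of Kif5a are at chr10:127228316-127228344 and chr10:127227756-127227784, and those of Kif1b at chr4:149180400-149180428 and chr4:149178824-149178852, all on the minus strand. That of Kif21a is at chr15:90933565-90933594, that of Dync1li2 at chr8:104417935-104417963 and that of Dynll2 at chr11:87981355-87981383, also on the minus strand. That of Kif26b is at chr1:178933875-178933903 on the plus strand. Only the Kif21a site among them has the 8-base form. Kif20b, Kif26a and Kifc3 also held a match and had too few counts to be tested.

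Setting anti-miR132-3p against scramble libraries asks what differs when miR-132-3p is targeted, and within the motor complexes the subunits differed in opposite directions. Among the motors themselves, Kif5a and Kif5c, the kinesin-1 heavy chains enriched in neurons, and Kif3c were higher with the anti-miR132-3p shRNA, whereas Kif3a and Kif2a were lower. The dynein heavy chain Dync1h1 and the largest dynactin subunit Dctn1 were higher, whereas the dynein chains Dync1i2, Dynlrb1 and Dynlt3 and the dynactin subunits Dctn5 and Dctn6 were lower. The light chain Klc2 had the largest fold of the called motor genes, 3.23. By edgeR's quasi-likelihood test, at an adjusted p under 0.05 over all tested genes, 9 of 40 motor genes were called higher (22.5%) and 7 lower (17.5%). Over all 11427 tested genes the shares were 13.5% and 10.4%, together 23.8%. With a correction for GC content and length, given below, Dynlt3, Dctn5 and Dctn6 lost their lower call. Their log2 fold changes were then -0.05, -0.25 and -0.09, and 0 of the dynactin genes chosen by symbol stayed called lower. Klc1 and Kifc2 lost their higher call.

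The tested motor genes had a median of 195 counts per library, against 60.5 for all tested genes, and the part of this depth in their larger share of calls was not tested. With each pair summed to 1 sample and an assumed coefficient of variation of 0.1, edgeR called 3 motor genes higher and 0 lower (8 and 1 at an unadjusted p under 0.05), and 395 and 58 of all genes. Without any single library, whichever it was, the quasi-likelihood test called 0 genes of the whole table in either direction, motor genes included, with 7 to 10 motor genes higher and 6 to 9 lower at an unadjusted p under 0.05. DESeq2's Wald test called 5 motor genes higher (Kif5a, Kif5c, Klc2, Dync1h1 and Dctn1) and 2 lower (Kif3a and Dync1i2), against 4.17% and 2.42% of all tested genes. Both anti-miR132-3p libraries were above both scramble libraries in 16 of the 40 and below them in 12, against 31.3% and 30.6% of all tested genes. Because libraries of the same group were as alike as repeated sampling, groups that do not overlap, as given for single genes below, are no replicate check. The median log2 fold change of the 40 was 0.05, and that of all tested genes -0.003. By summed counts, 9 motor genes were at least 1.5-fold higher and 1, Dync2li1, at least 1.5-fold lower, against 12.6% and 5.12% of all tested genes.

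**Figure D1:**
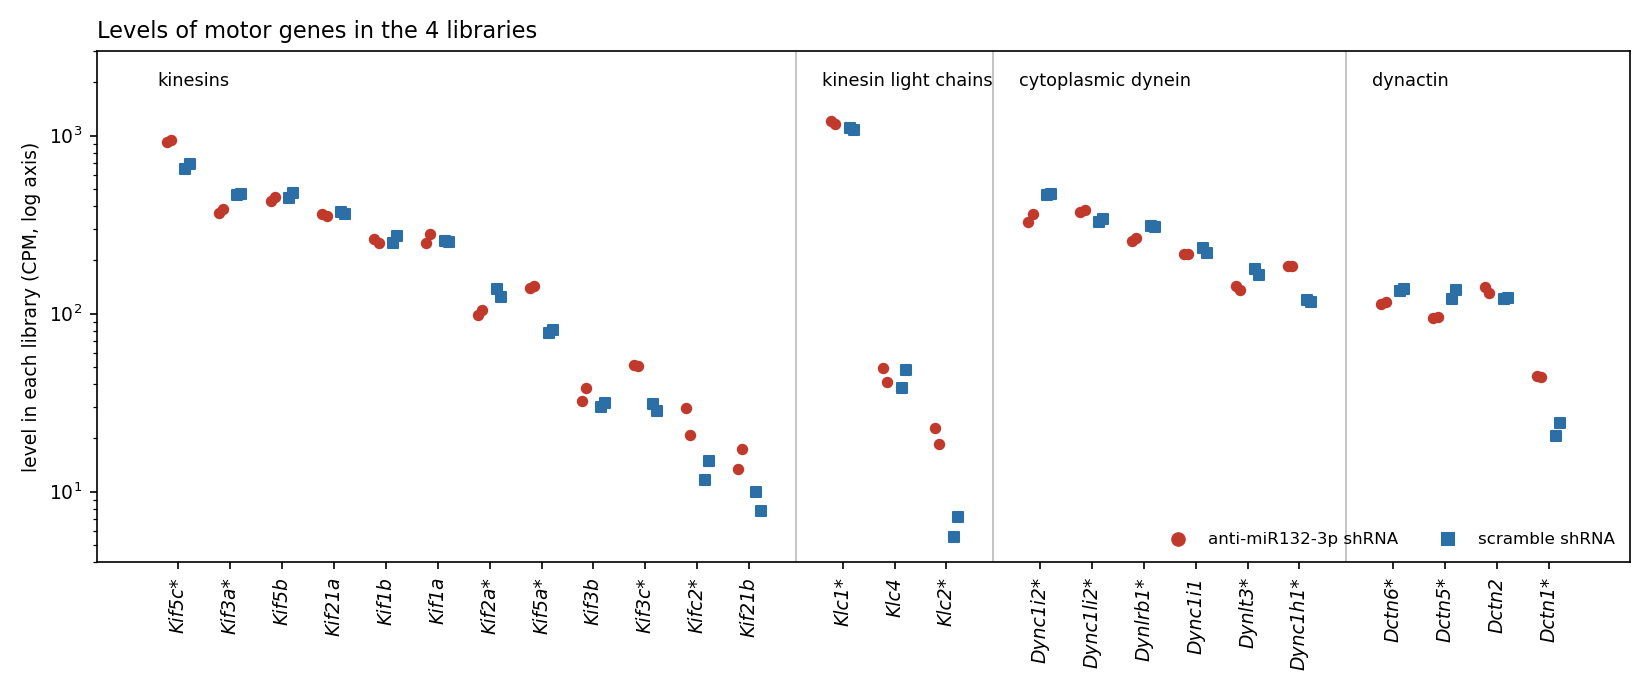
Level of 25 motor genes in CPM (log axis) in each library, with the 2 anti-miR132-3p libraries as circles on the left and the 2 scramble libraries as squares on the right of each gene. Asterisks mark the 16 genes called by edgeR's quasi-likelihood test on these same libraries. In each of these the circles and the squares do not overlap, as for Kif5a at 140 CPM over the anti-miR132-3p pair and 79.5 CPM over the scramble pair. The libraries were also apart in 31.3% (higher) and 30.6% (lower) of all tested genes.

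Summed over all members, the motor genes were at 6849 and 6928 CPM in the anti-miR132-3p libraries and at 6676 and 6722 CPM in the scramble libraries. The 43 kinesins summed to 3109 CPM with the anti-miR132-3p shRNA and 2878 CPM with the scramble shRNA, 1.08-fold higher (1.05 to 1.11). The 4 light chains summed to 1257 CPM with anti-miR132-3p and 1148 CPM with scramble, 1.09-fold higher (1.05 to 1.14), and Klc1 made up nearly all of it. The 17 dynein genes summed to 2052 CPM with anti-miR132-3p and 2168 CPM with scramble, 1.06-fold lower (1.02 to 1.09). The 6 dynactin genes summed to 471 CPM with anti-miR132-3p and 506 CPM with scramble, 1.07-fold lower (1.00 to 1.15). The classes thus differed by under 1.1-fold in sum while single members differed by more. Of the tested genes, 4 kinesins of 18 were called higher and 2 lower, 2 light chains of 4 higher, 2 dynein genes of 13 higher and 3 lower, and 1 dynactin gene of 5 higher and 2 lower. The shares over all tested genes were 13.5% higher and 10.4% lower, and those of the kinesins called lower (11.1%) and the dynein genes called higher (15.4%) were near them.

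Of the 3 kinesin-1 heavy chains, both neuronal ones were higher with the anti-miR132-3p shRNA and the widespread one was not called. Kif5c, a heavy chain of neurons, had 1587 and 1634 counts in the anti-miR132-3p libraries, against 1176 and 1245 counts in the scramble libraries. The 2 groups did not overlap, and Kif5c was 1.39-fold higher (1.32 to 1.47, adjusted p = 2.31e-07). Kif5a, the neuronal heavy chain whose mutation causes hereditary spastic paraplegia in people, had 239 and 245 counts with anti-miR132-3p, against 140 and 147 counts with scramble. Both anti-miR132-3p libraries were well above both scramble libraries, and Kif5a was 1.77-fold higher (1.52 to 2.05, adjusted p = 1.12e-05). Kif5b, the heavy chain found in nearly all cells, had 742 and 775 counts with anti-miR132-3p, against 808 and 857 counts with scramble. After scaling its groups overlapped, and it was 1.05-fold lower with an interval of the fold that includes 1 (0.977 to 1.12, adjusted p = 0.345).

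Per kilobase, the order of the 3 heavy chains was the same in both groups. Kif5c was at 131 CPM per kilobase with the anti-miR132-3p shRNA and 93.9 with the scramble shRNA, Kif5b at 55.1 with anti-miR132-3p and 57.8 with scramble, and Kif5a at 20.1 with anti-miR132-3p and 11.4 with scramble. Since shares within a family do not depend on library scaling, they were also set side by side. Kif5a held 9.27% of the kinesin-1 heavy chain reads (8.5 to 10.1) with the anti-miR132-3p shRNA and 6.56% (5.85 to 7.34) with the scramble shRNA. Kif5c held 61.7% (60.3 to 63.0) with anti-miR132-3p and 55.4% (53.9 to 56.8) with scramble. Kif5b held 29.1% (27.8 to 30.3) with anti-miR132-3p and 38.1% (36.6 to 39.5) with scramble. The neuronal heavy chains therefore took a larger part of these reads, and Kif5b a smaller part, in both anti-miR132-3p libraries than in either scramble library.

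Kinesin light chains link heavy chains to cargo. Klc1, the light chain enriched in neurons, had 2075 and 2014 counts in the anti-miR132-3p libraries, against 1995 and 1947 counts in the scramble libraries. At 291 CPM per kilobase with the anti-miR132-3p shRNA and 268 with the scramble shRNA it had, with Dynlrb1, the highest levels of the motor genes. It was 1.09-fold higher (1.04 to 1.14, adjusted p = 0.0127). Klc2, a second light chain, had 39 and 32 counts with anti-miR132-3p, against 10 and 13 counts with scramble. Every anti-miR132-3p library had more than 2 times the counts of either scramble library, and Klc2 was 3.23-fold higher (2.00 to 5.42, adjusted p = 0.000761). Klc2 remained a small part of the light chain reads, 1.64% (1.28 to 2.06) with anti-miR132-3p against 0.555% (0.352 to 0.832) with scramble. Klc4 had 85 and 71 counts with anti-miR132-3p, against 69 and 87 counts with scramble (1.05-fold, 0.833 to 1.32, adjusted p = 0.808), and Klc3 had 10 and 6 with anti-miR132-3p, against 10 and 13 with scramble, and neither was called.

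Kinesin-2 pairs KIF3A with KIF3B or KIF3C and works in axonal transport and in building cilia. Kif3a, the common partner, had 635 and 668 counts in the anti-miR132-3p libraries, against 838 and 845 counts in the scramble libraries, 1.23-fold lower (1.15 to 1.33, adjusted p = 0.000314). Kif3c, the partner enriched in neurons, had 89 and 88 counts with anti-miR132-3p, against 56 and 51 counts with scramble, 1.73-fold higher (1.35 to 2.22, adjusted p = 0.002). Neither gene's groups overlapped, and they lay on opposite sides. Kif3b had 56 and 66 counts with anti-miR132-3p, against 54 and 57 counts with scramble, 1.15-fold higher (0.883 to 1.5), and was not called (adjusted p = 0.451). Kif3c held 11.05% of the kinesin-2 reads (9.55 to 12.7) with anti-miR132-3p against 5.63% (4.64 to 6.76) with scramble. Kif3a held 81.3% (79.3 to 83.2) with anti-miR132-3p against 88.5% (87.0 to 89.9) with scramble. In the GENCODE M21 annotation 35.3% of the exonic bases of Kif3c also lie in 1110002L01Rik on the opposite strand, which had 20 and 17 counts with anti-miR132-3p, against 18 and 15 with scramble. Whether the counting used strand is not given in the sources used here, and without it reads of the overlapping genes cannot be told apart. Among other called motor genes, such overlaps were 19.2% for Kif2a, 11.8% for Dctn6, 10.6% for Klc2 and 7.08% for Dync1li2. They were 4.15% for Kifc2, up to 2.57% for Dync1h1 and 0.295% for Klc1. Among tested genes not called, the largest were 28.1% for Klc3, 13.6% for Dynlt1a and 6.19% for Kif26b.

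**Figure D2:**
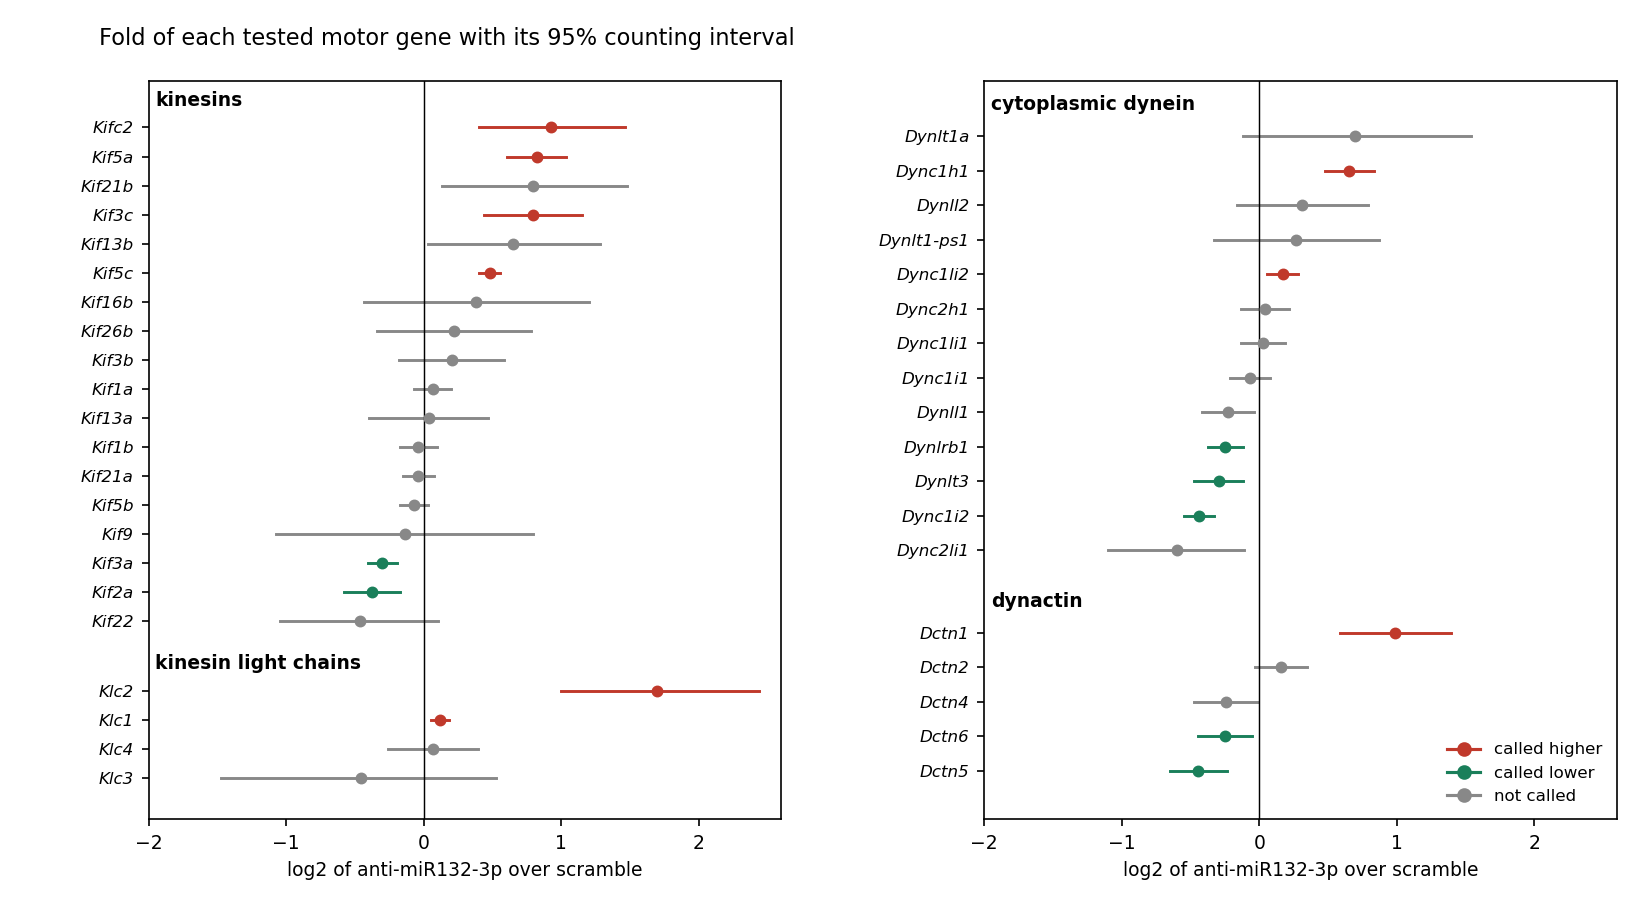
Fold of the anti-miR132-3p over the scramble shRNA for the 40 tested motor genes on a log2 axis, from counts summed over each pair, with lines for the exact 95% counting interval. Colours give the call of edgeR's quasi-likelihood test: 9 genes were higher, led by Klc2, and 7 lower, with Dctn5 and Dync1i2 both at 1.36-fold lower.

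Kinesins of other families that carry vesicles gave no calls. Kif1a, which carries synaptic vesicle precursors and dense core vesicles, had 430 and 484 counts in the anti-miR132-3p libraries, against 459 and 455 counts in the scramble libraries (1.05-fold, 0.954 to 1.15, adjusted p = 0.512). Kif1b, which carries mitochondria and vesicles and has 2 of the printed seed matches, had 451 and 427 counts with anti-miR132-3p, against 450 and 494 counts with scramble, 1.03-fold lower with an interval that includes 1 (0.936 to 1.13, adjusted p = 0.721). Kif21a, a motor that restrains microtubule growth and holds the 8-base site, had 626 and 607 counts with anti-miR132-3p, against 671 and 656 counts with scramble, 1.03-fold lower, also with an interval that includes 1 (0.95 to 1.11, adjusted p = 0.622). Kif21b, its close relative, had 23 and 30 counts with anti-miR132-3p, against 18 and 14 counts with scramble, 1.73-fold higher (1.1 to 2.78), and its adjusted p of 0.0682 missed the threshold. Kif13b had 32 and 25 counts with anti-miR132-3p, against 18 and 20 counts with scramble (1.57-fold, 1.02 to 2.43), with an adjusted p of 0.106. Kif13a and Kif16b, which act in endosome transport, and Kif26b, Kif9 and Kif22 had 5 to 50 counts per library and were not called either. Of the 15 transport kinesins listed, 13 were tested, 3 called higher and 1 lower, against 13.5% and 10.4% of all tested genes, with a median log2 fold change of 0.20 beside -0.003.

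A kinesin that takes microtubules apart was lower. Kif2a, a depolymerase that limits branching of axons, had 169 and 180 counts in the anti-miR132-3p libraries, against 249 and 224 counts in the scramble libraries, 1.29-fold lower (1.12 to 1.49, adjusted p = 0.0103). Its groups did not overlap, and 19.2% of its exonic bases in M21 are shared with Dimt1 on the opposite strand, which had 48 and 45 counts with anti-miR132-3p, against 72 and 62 with scramble. Kifc2, a motor of neurons from the family that moves towards the other end of microtubules, had 51 and 36 counts with anti-miR132-3p, against 21 and 27 counts with scramble, 1.90-fold higher (1.32 to 2.76, adjusted p = 0.0175). The spread within its pairs was wide beside that of Kif5a. Of 7 depolymerising kinesins listed, only Kif2a had enough counts to be tested.

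Motors of cell division had few counts. Of 14 mitotic kinesins listed, only Kif22 was tested, and all 14 together had 99 counts with the anti-miR132-3p shRNA and 120 with the scramble shRNA. Kif20b had 0 and 0 counts with anti-miR132-3p, against 5 and 2 with scramble, and Kif11 had 2 and 3 counts with anti-miR132-3p, against 0 and 1 with scramble. The 10 markers of proliferating cells summed to 33 counts with the anti-miR132-3p shRNA and 29 with the scramble shRNA, with Mki67 at 0. In all, 30 motor genes were not tested, of which 10 had 0 counts in every library and none had more than 30 over the 4 libraries. The other 20 were Kif11, Kif14, Kif15, Kif17, Kif18a, Kif1c, Kif20a, Kif20b, Kif23, Kif24, Kif27, Kif2c, Kif6, Kif7, Kifc1, Kifc3, Kifc5b, Dynlt1b, Dynlt1c and Dynlt1f. Those at 0 were Kif12, Kif18b, Kif19a, Kif26a, Kif28, Kif2b, Kif4, Kifc5c-ps, Dynlrb2 and Dctn3.

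The chains of dynein-1 did not move together. Dync1h1, the heavy chain that holds the motor, had 321 and 318 counts in the anti-miR132-3p libraries, against 216 and 209 counts in the scramble libraries. Its groups were far apart, and it was 1.57-fold higher (1.39 to 1.78, adjusted p = 1.93e-05), at 11.8 CPM per kilobase with the anti-miR132-3p shRNA and 7.52 with the scramble shRNA. Dync1i2, the intermediate chain found in most cells, had 561 and 624 counts with anti-miR132-3p, against 835 and 848 counts with scramble, 1.36-fold lower (1.26 to 1.46, adjusted p = 2.58e-05). Dync1i1, the intermediate chain enriched in neurons, had 374 and 373 counts with anti-miR132-3p, against 423 and 395 counts with scramble (1.05-fold lower, 0.946 to 1.16), and was not called (adjusted p = 0.526). Dync1i1 thus held 38.7% of intermediate chain reads (36.5 to 40.9) with anti-miR132-3p against 32.7% (30.9 to 34.6) with scramble. Per kilobase its share was larger, 59.4% with anti-miR132-3p and 53.0% with scramble.

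The light intermediate chains bind the adaptors that join dynein to cargo. Dync1li2, which holds a seed match, had 641 and 654 counts in the anti-miR132-3p libraries, against 591 and 614 counts in the scramble libraries, 1.13-fold higher (1.04 to 1.22, adjusted p = 0.0265). Dync1li1 had 315 and 313 counts with anti-miR132-3p, against 336 and 310 counts with scramble, and was not called. Among reads of these 5 larger dynein-1 chains, the heavy chain held 14.2% (13.2 to 15.3) with anti-miR132-3p against 8.90% (8.10 to 9.74) with scramble. Dync1i2 held 26.4% (25.1 to 27.7) with anti-miR132-3p against 35.2% (33.9 to 36.6) with scramble. The intervals of these shares did not overlap between groups.

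The light chains sit on the tail of dynein. Dynlrb1, a light chain of the roadblock family with the highest level per kilobase of the motor genes in the scramble libraries (306, beside 258 with the anti-miR132-3p shRNA), had 440 and 458 counts in the anti-miR132-3p libraries, against 560 and 555 counts in the scramble libraries, 1.19-fold lower (1.09 to 1.3, adjusted p = 0.00591). Dynlt3, a light chain of the Tctex family, had 246 and 234 counts with anti-miR132-3p, against 319 and 298 counts with scramble, 1.23-fold lower (1.09 to 1.39, adjusted p = 0.014). In both genes every anti-miR132-3p library was below every scramble library, as in 30.6% of all tested genes. Dynll1, a light chain that also binds many other proteins, had 198 and 216 counts with anti-miR132-3p, against 239 and 269 counts with scramble (1.17-fold lower, 1.03 to 1.34), and its adjusted p of 0.0829 missed the threshold. Dynll2, its near copy and a holder of a seed match, had 42 and 41 counts with anti-miR132-3p, against 32 and 38 counts with scramble (1.24-fold, 0.892 to 1.73). Dynlt1a, Dynlt1b, Dynlt1c, Dynlt1f and Dynlt1-ps1 are near-identical copies that can share reads, so their counts of 31 or fewer per library are uncertain.

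Dynein-2 runs inside cilia. Dync2h1, its heavy chain, had 257 and 275 counts in the anti-miR132-3p libraries, against 265 and 277 counts in the scramble libraries (1.03-fold, 0.910 to 1.16). Dync2li1, its light intermediate chain, had 27 and 31 counts with anti-miR132-3p, against 44 and 48 counts with scramble, 1.51-fold lower (1.08 to 2.14), and was not called (adjusted p = 0.0644). The heavy chain of the axonal motor and that of the ciliary motor thus differed in their values, 1.57-fold and 1.03-fold. The difference between the 2 genes was not tested.

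**Figure D3:**
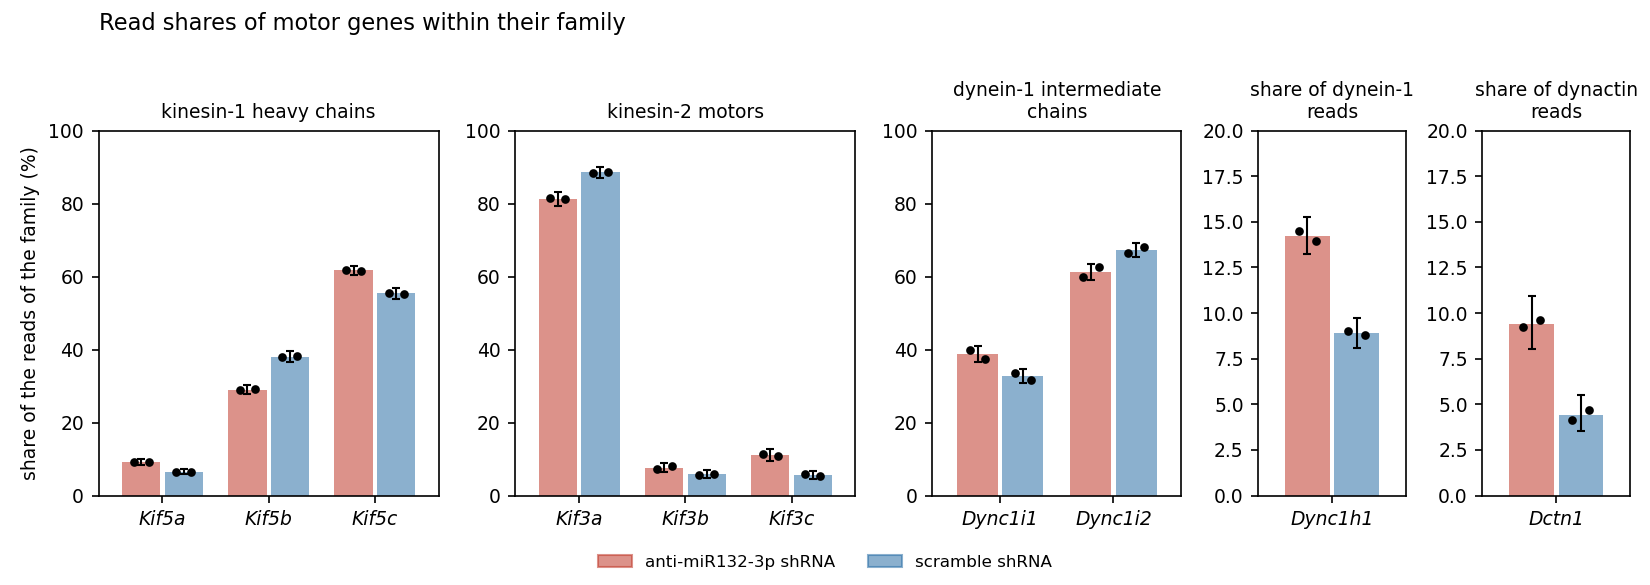
Share of a gene in the reads of its family, in percent, with bars for the pair of libraries, black points for single libraries and error bars for the exact 95% binomial interval; anti-miR132-3p bars are on the left of scramble bars. The Kif5a, Kif3c, Dync1h1 and Dctn1 shares were higher with the anti-miR132-3p shRNA, such as 9.42% with anti-miR132-3p against 4.44% with scramble for Dctn1 among the 5 dynactin genes with counts; the last 2 panels end at 20%.

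In dynactin, the cofactor of dynein, Dctn1 was called higher and Dctn5 and Dctn6 lower, but both lower calls were lost with a correction for GC content and length (adjusted p = 0.081 and 0.541) and in DESeq2 (0.0997 and 0.431). Dctn1, the subunit that binds both dynein and microtubules, had 77 and 76 counts in the anti-miR132-3p libraries, against 37 and 44 counts in the scramble libraries. Its groups were well apart, and it was 1.98-fold higher (1.5 to 2.62, adjusted p = 0.000969). Dctn5 and Dctn6 belong to the pointed end of the dynactin filament. Dctn5 had 162 and 165 counts with anti-miR132-3p, against 219 and 246 counts with scramble, 1.36-fold lower (1.18 to 1.57, adjusted p = 0.00356), and Dctn6 had 196 and 200 counts with anti-miR132-3p, against 243 and 250 counts with scramble, 1.19-fold lower (1.04 to 1.36, adjusted p = 0.0456). Dctn4, also of the pointed end, had 154 and 125 counts with anti-miR132-3p, against 171 and 174 counts with scramble (1.18-fold lower, 1.01 to 1.39), and was not called. Dctn2, which joins the projecting arm to the filament, had 244 and 226 counts with anti-miR132-3p, against 219 and 222 counts with scramble (1.12-fold, 0.978 to 1.27, adjusted p = 0.202). Dctn3, a subunit of that arm, is listed at 0 in all 4 libraries, which does not show that it was not expressed. Its exons overlap those of no other gene in M21, but what counted the reads, and on which annotation, is not given in the sources used here.

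The subunits of dynactin with other symbols, added after the data were seen, also lay on both sides. Actr1a and Actr1b, the actin-related proteins of the filament, were 1.16-fold (1.06 to 1.28) and 1.27-fold higher (1.13 to 1.44). Capza1 and Capza2, the capping proteins of its end, were 1.43-fold (1.16 to 1.76) and 1.12-fold lower (1.05 to 1.19). All 4 were called, whereas Capzb and Actr10 were not. Of the 6 tested, 2 were thus called higher and 2 lower (33.3% each), against 13.5% and 10.4% of all tested genes. With the correction for GC content and length 0 were called higher and 0 lower.

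Genes that the rule did not take, the adaptors and regulators of motors, were counted from a list. Of 43 listed, 38 were tested, 11 called higher (28.9%) and 5 lower (13.2%), against 13.5% and 10.4% of all tested genes, with a median log2 fold change of 0.19 beside -0.003 over all tested genes. Plekhm2, which joins kinesin-1 to lysosomes, had 20 and 27 counts in the anti-miR132-3p libraries, against 7 and 7 in the scramble libraries, 3.52-fold higher (1.90 to 6.91, adjusted p = 0.00208). Hap1, an adaptor of both kinesin-1 and dynactin, had 51 and 52 counts with anti-miR132-3p, against 23 and 18 with scramble, 2.63-fold higher (1.82 to 3.88, adjusted p = 0.000525). Trak2 and Rhot2, which attach motors to mitochondria, were 1.82-fold (1.42 to 2.33) and 1.87-fold higher (1.19 to 2.97). Rhot1, the relative of Rhot2, went the other way. It had 367 and 393 counts with anti-miR132-3p, against 454 and 456 with scramble, 1.14-fold lower (1.04 to 1.26, adjusted p = 0.0398). Mapk8ip1, a scaffold that binds kinesin light chains, was 1.67-fold higher (1.28 to 2.19), and Madd, which binds KIF1 motors, 1.60-fold higher (1.36 to 1.90).

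Hook1, Nudcd3, Map7, Clstn1 and Trak1 were also called higher, from 1.16-fold for Hook1 to 1.55-fold for Trak1. The remaining regulators were lower or not called. Map7d2, a microtubule protein that recruits kinesin-1, had 230 and 246 counts in the anti-miR132-3p libraries, against 379 and 335 in the scramble libraries, 1.43-fold lower (1.27 to 1.61, adjusted p = 0.000324). Kifap3, the non-motor partner in kinesin-2, had 991 and 1011 counts with anti-miR132-3p, against 1181 and 1153 with scramble, 1.11-fold lower (1.05 to 1.18, adjusted p = 0.0116), on the same side as Kif3a. Pafah1b1, which encodes LIS1, the activator of dynein, had 687 and 596 counts with anti-miR132-3p, against 608 and 616 with scramble, 1.1-fold higher (1.01 to 1.19), and was not called (adjusted p = 0.133). Of 10 ciliary motor genes with an identifier, 5 were tested, 0 called higher by edgeR's test and 1, Kif3a, lower.

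The values of motor genes went with the GC content and length of the genes. The 9 genes called higher had a median GC content of 53.8% and a median exonic length of 6509 bases, against 47.6% and 2853 bases for the 7 called lower. Across the 40 tested motor genes, which share libraries and are not replicates, the log2 fold change had a Spearman's rank correlation of 0.44 with GC content and 0.34 with length. Across 11273 tested genes with a value these were 0.24 and 0.23. Dync1h1 had 15658 exonic bases and Dctn1 6509, both called higher, whereas Dynlrb1 had 1009 and Dctn5 2649, both called lower. Dync1i2, also called lower, had 8280.

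When counts were corrected for GC content and length over all tested genes, 7 motor genes were called higher and 5 lower, against 11.2% and 8.48% of all tested genes. The 7 were all among the 9 before. Kif5a, Kif5c, Kif3c, Klc2, Dync1h1, Dync1li2 and Dctn1 kept their call, with log2 fold changes of 0.61, 0.47, 0.66, 1.36, 0.40, 0.19 and 0.63. Kifc2 lost its call at a log2 fold change of 0.63 (adjusted p = 0.0924), and Klc1 lost it with its sign turned, at -0.086 (adjusted p = 0.0685). Kif3a, Kif2a, Dync1i2 and Dynlrb1 stayed called lower, while Dctn5, at -0.25, Dctn6, at -0.09, and Dynlt3, at -0.05, did not (adjusted p = 0.081, 0.541 and 0.726). Kif1a was then called lower, with a log2 fold change of -0.20 (adjusted p = 0.0339). Among genes outside the rule, Rhot1, Rhot2, Trak1, Clstn1, Map7, Nudcd3, Mapk8ip1, Kifap3, Actr1a, Actr1b, Capza1 and Capza2 also lost their call. Pafah1b1 was then called higher (adjusted p = 0.0487), and the adaptor list had 6 called higher and 3 lower, namely Map7d2, Fez1 and Fez2. The median of all tested genes was 0.03 under the correction and that of the 40 motor genes -0.04.

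**Figure D4:**
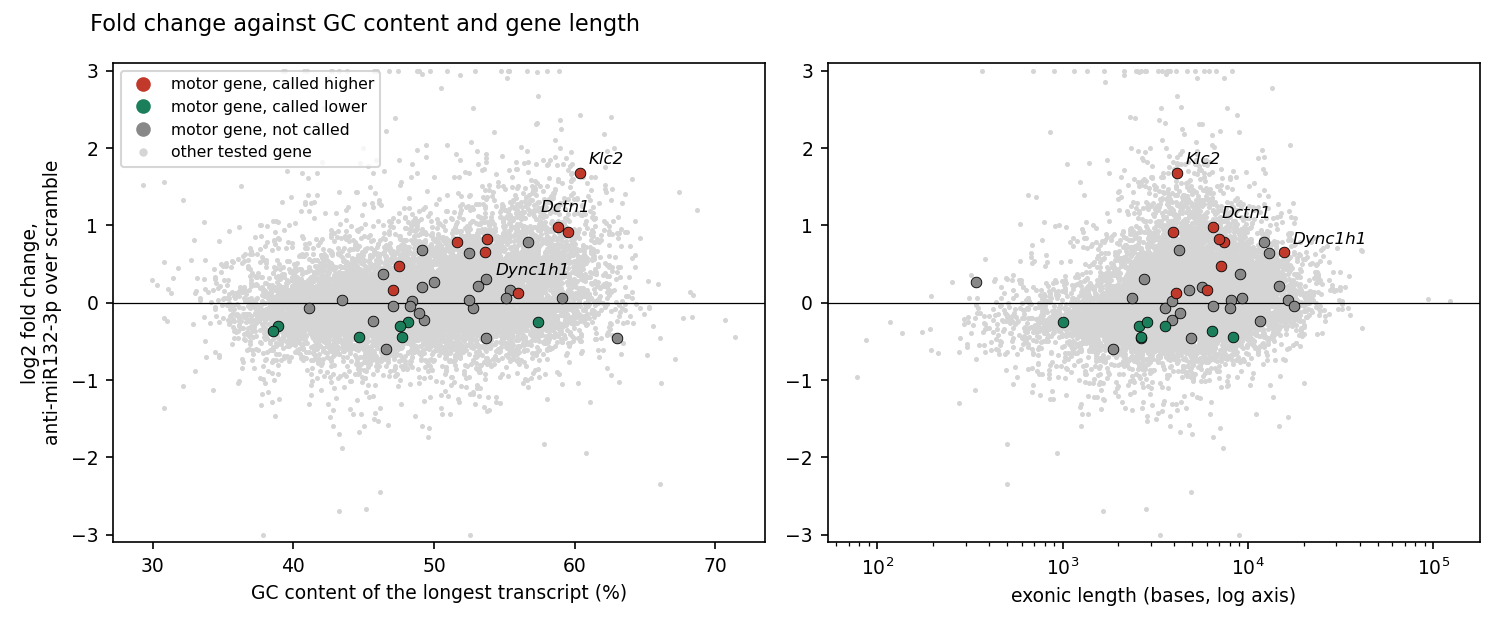
Log2 fold change of the anti-miR132-3p over the scramble shRNA against GC content (left) and exonic length on a log axis (right), with motor genes as large points coloured by call and other tested genes as small grey points; values beyond 3 in size are drawn at 3. Motor genes called higher had a median GC content of 53.8% and those called lower 47.6%, with overlap between them on both axes.

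The share of motor genes with a match of the miR-132-3p seed was near that of all tested genes. The 6 tested genes with one had a median log2 fold change of 0.19, and the 33 without one 0.03. Of the 6, Kif5a and Dync1li2 were called higher and 0 lower by edgeR's test, while Kif1b, Kif21a, Dynll2 and Kif26b were not called. Of the 33 without a match, 7 were called higher and 7 lower. Among all 1478 tested genes with a match the median was 0.006, with 211 called higher and 168 lower. Among the 8913 without one it was 0.002, with 1255 called higher and 962 lower. A match is a stretch of letters and does not show that the microRNA binds there.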

How the data were processed

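Counts per gene were deposited by the authors as whole numbers for 4 libraries, with no normalization. The submitters' processing notes name HISAT2 2.2.1, Trimmomatic 0.39, SAMtools 1.10, Cuffdiff, Cufflinks and Cuffnorm and the build GRCm39. What counted the reads, on which annotation and with what strand setting, is not given in the sources used here. Columns named for mCherry were taken as scramble because the other columns name miR132. Both vectors express mCherry, so every direction rests on this exclusion.

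Symbols and gene lengths came from GENCODE M21 (GRCm38); 51486 identifiers had a symbol. Length is that of merged exons and GC content that of the longest transcript. Genes passing edgeR's filterByExpr (11427) were scaled by TMM and compared with glmQLFit and glmQLFTest, p-values being adjusted by Benjamini-Hochberg over all of them (R 4.3.3, edgeR 4.0.16, limma 3.58.1, DESeq2 1.42.0). Library size for CPM is the count over tested genes times the TMM factor. Folds are ratios of CPM of summed counts. The GC and length correction used splines with 4 degrees of freedom per library, centred so that the scaling stays that of TMM. The chi-square test used genes with at least 20 counts in a pair.

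The motor genes, lists and tests were chosen with earlier results of these data known. Values were to be given in full for the 3 motor genes of each class (8 kinesins) with the highest level per kilobase, those called with a fold of at least 1.5, their paralogues, and 6 called adaptors. Map7d2, Kifap3, Pafah1b1, Rhot1, Fez1, Fez2, Trak1, Clstn1, Map7, Nudcd3, Hook1 and other motor genes described were chosen after their values were seen. Dync2i1, Dync2i2, Dynlt2b and Dynlt5 of the ciliary list had no identifier under those symbols, and Kifbp was matched by its older symbol Kif1bp. Of these, 3 ciliary genes under older symbols (Wdr60, Wdr34 and Tctex1d2) were tested, with 0 called by edgeR's test. The value of 1 marker gene is not reported here.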

Additional observations from a re-analysis of the deposited data

How the results depend on the processing

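Of 9 motor genes called higher and 7 lower, other scaling, a filter of 10 counts in every library, limma-voom, the likelihood ratio test and the GC and length correction kept both counts within 1.5 times. DESeq2 gave 5 and 2, and gave no adjusted p for 4 of the 40. With no low-count filter the counts were 0 and 0 (12 and 8 at an unadjusted p under 0.05; 1 and 2 over all genes), where edgeR's prior degrees of freedom were 1.16 against 14.1. Leaving out 1 library gave 0 to 0 higher and 0 to 0 lower, and 0 over all genes, with 1 residual degree of freedom; the lone library is assumed to vary like the others. With pairs summed and an assumed coefficient of variation of 0.1 the counts were 3 and 0 (8 and 1 unadjusted; 395 and 58 over all genes), and at 0.2 they were 0 and 0 (2 and 0 unadjusted; 46 and 10 over all genes). An adjusted p under 0.01 left 6 higher and 4 lower (856 and 547 over all genes). With glmTreat against 1.2-fold 6 and 1 were left (734 and 219 over all genes). A 1.5-fold minimum left 6 and 0 (969 and 268 over all genes), where 9 were lower at an unadjusted p under 0.05 with no fold minimum. Beyond what fewer libraries or a higher bar bring, the cause was not tested. With the correction, the log2 fold change of Klc1 turned to -0.086 and that of Kif1a to -0.20. The summed levels of the 4 classes moved within their counting intervals under other scaling and without any single library. As anti-miR132-3p over scramble, the dynactin interval then included 1 with library totals only (0.888 to 1.016). It also did without anti-miR132-3p replicate 2 or scramble replicate 2. The dynein interval included 1 without anti-miR132-3p replicate 1 (0.927 to 1.004). The sums were not corrected for GC content and length. Libraries of the same number share only a number (correlation of deviations 0.01 across genes): with the replicate block 9 were called higher and 8 lower (1740 and 1437 over all genes). Depth limits the low genes: 3 counts in a library are 1.66 to 1.74 CPM.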
